A study of Rattus norvegicus with 8 samples.

Results

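The genes described here are 9 members of the mitochondrial respiratory chain, measured in cultured rat glia sorted by their content of lipid droplets, the cell's stores of neutral fat. They were taken by gene name from the authors' deposited tables of called genes, and all 9 were found among the 1187 genes listed there. The mitochondrial genome encodes 4 of them (Mt-nd1, Mt-nd2, Mt-nd4 and Mt-co2) and the nuclear genome encodes 5 (Atp5l, Atp5g3, Uqcrq, Cox6c and Cycs). The sequenced samples were 4 of droplet-rich glia (LD-high) and 4 of droplet-poor glia (LD-low). Both groups were hippocampal glia from rats at postnatal day 0, grown in medium with 10% fetal bovine serum, used at 3 to 5 days in vitro, treated with the lipid dye Nile red and then sorted by fluorescence. The labels give no strain and name no treatment other than the stain, and they do not say whether the numbered samples came from separate animals or cultures, so the authors' p-values may measure technical spread.

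The respiratory chain passes electrons from NADH and succinate through complexes I to IV to oxygen, with cytochrome c as the soluble carrier between complexes III and IV, and complex V (ATP synthase) uses the resulting proton gradient to make ATP. Most subunits are encoded in the nucleus and imported. A small set of core membrane subunits is encoded in the mitochondrial genome, whose genes are read as long transcripts that are cut into single messages. Astrocytes, the main cells such cultures are grown for, hold mitochondria that also oxidise fatty acids.

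In the authors' deposited table all 9 genes were higher in LD-high glia, though Atp5g3, Cox6c and Cycs came out slightly lower when levels were rescaled to an equal sum over all listed genes. The 4 listed messages of the mitochondrial genome were 2.17 to 3.57 times as high in LD-high as in LD-low glia (log2 changes 1.12 to 1.84). The 5 nuclear messages were 1.83 to 2.01 times as high (log2 changes 0.87 to 1.01). Of the other messages of the chain, 9 of 13 protein genes of the mitochondrial genome and 79 of 85 nuclear symbols were not called and have no level here. In the rescaling every log2 change fell by 0.99, so that any change smaller than this turns negative, and its sum is over called genes, of which the mitochondrial messages are a large share. With the mitochondrial genome left out of the sum, every log2 change fell by 0.84 and none of the 9 turned negative. Both sums held the locus AABR07046778.1, whose level was above that of each of the 9 in both groups. A sum without that locus was not tried. Relative to the first rescaling the mitochondrial messages had a median change of 0.54 and the nuclear ones of -0.065. Among the 9, the ranges of the 2 sets did not overlap, with Mt-co2 the lowest of the mitochondrial members and Atp5l the highest of the nuclear ones. These ranges do not hold for all called genes of mitochondrial proteins, which are given below. This is a description of 9 named genes, for which the difference between genomes was not tested. A gene is listed because the authors' test called it (q below 0.05, where q is the p-value adjusted for all genes tested), so the calls of the 9 are a property of how they were chosen. Of the 12981 genes tested, 4.92% were called higher and 4.22% lower. The files give 1 level per gene and group, so no spread between replicates can be stated for any value here. In sorted bulk samples, more cells of a type and more RNA per cell cannot be told apart.

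Levels are taken to be in FPKM, the unit Cuffdiff reports, as the authors' headers name no unit. FPKM is a count of fragments scaled to transcript length and to sequencing depth, so that genes can be compared. Mt-nd1, a core subunit of complex I (ENSRNOG00000030644, mitochondrial genome 2740 to 3694 in rn6), stood at 13169 FPKM in LD-high glia and 4957 FPKM in LD-low glia. Its log2 change was 1.41, with p = 0.0027 and q = 0.0351 in the authors' deposited table. Mt-nd1 had the highest level of the 9 in both groups and also the weakest q of the 9. Mt-nd2, a further core subunit of complex I (ENSRNOG00000031033, 3904 to 4942), stood at 12403 FPKM in LD-high glia and 3996 FPKM in LD-low glia. The log2 change of Mt-nd2 was 1.63 (q = 0.00747 per the authors' deposited table). Mt-nd4, the third complex I subunit (ENSRNOG00000029707, 9870 to 11537), stood at 3770 FPKM in LD-high glia and 1056 FPKM in LD-low glia. Mt-nd4 was the least abundant of the 4 mitochondrial messages with a level in both groups and had the largest change of the 9, a log2 change of 1.84 (q = 0.00556 per the authors' deposited table). Mt-co2 encodes the subunit of complex IV that takes electrons from cytochrome c (ENSRNOG00000030371, 7006 to 7689). It stood at 8659 FPKM in LD-high glia and 3994 FPKM in LD-low glia, a log2 change of 1.12 (q = 0.00456 per the authors' deposited table).

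**Figure D1:**
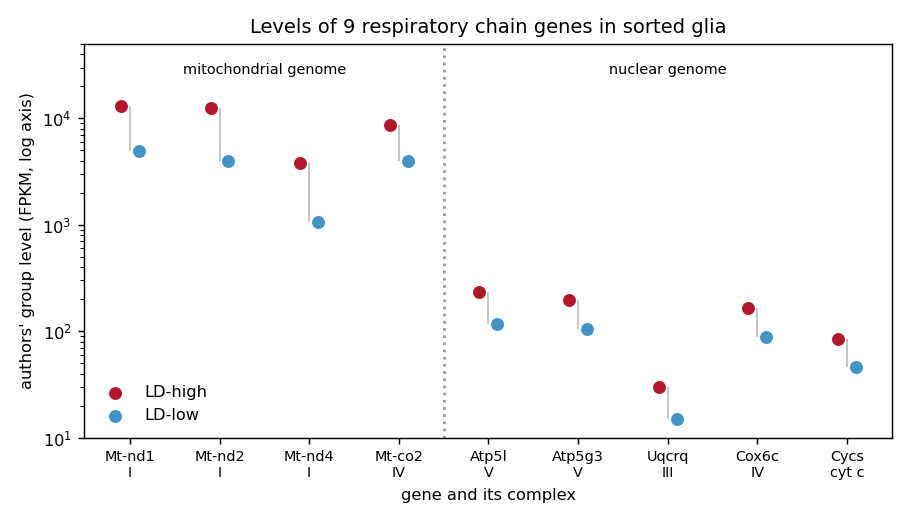
Authors' group levels (FPKM, logarithmic axis) of the 9 genes, with the complex under each name, in LD-high (red) and LD-low glia (blue); 1 level per group, no error bars. The mitochondrial messages lie between 3770 and 13169 FPKM in LD-high and between 1056 and 4957 FPKM in LD-low glia, and the nuclear ones between 30.0 and 235 FPKM in LD-high and between 15.0 and 117 FPKM in LD-low glia.

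The order of the mitochondrial messages by level was Mt-nd1, Mt-nd2, Mt-co2, Mt-nd4 in both groups, but the distances between them differed. Mt-nd2 and Mt-co2 were almost level in LD-low glia, whereas in LD-high glia Mt-nd2 was 1.43 times Mt-co2, against 1.001 times in LD-low glia. Mt-nd1 was 3.49 times Mt-nd4 in LD-high and 4.70 times in LD-low glia. The 4 messages thus spanned 3.49-fold in LD-high and 4.70-fold in LD-low glia. Without values per sample it cannot be said which of these neighbours differ beyond their spread. Along the mitochondrial genome the order is Mt-nd1, Mt-nd2, Mt-co2, Mt-nd4, with 209, 2063 and 2180 bases between successive loci. The log2 changes in that order were 1.41, 1.63, 1.12 and 1.84, so the change neither rose nor fell steadily with position. All 4 are read from the same strand, and messages cut from a shared transcript are not independent of each other.

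The 4 messages were among the most abundant of all listed genes. They ranked 2, 3, 4 and 6 by level in LD-high glia and 2, 3, 4 and 10 in LD-low glia. Together they summed to 38001 FPKM in LD-high and 14003 FPKM in LD-low glia, which was 27.6% of the summed level of the listed genes in LD-high and 20.1% in LD-low glia. The ratio of these sums was 2.71. For the 5 nuclear genes the sum was 711 FPKM in LD-high and 370.3 FPKM in LD-low glia, or 0.516% of the listed sum in LD-high and 0.532% in LD-low glia. Because FPKM is scaled to sequencing depth, a rise in such abundant messages can lower the FPKM of others, which was not tested here. The share is over called genes alone and is not a share of the library.

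Of the 13 protein genes of the mitochondrial genome, 4 (30.8%) were called higher and 0 lower, beside 4.92% higher and 4.22% lower of all genes tested. These 4 are the members themselves, which were chosen from called genes. The other 9 were not among the called genes, which means that they either did not pass or were not tested: Mt-nd3, Mt-nd4l, Mt-nd5, Mt-nd6, Mt-cyb, Mt-co1, Mt-co3, Mt-atp6 and Mt-atp8. The 2 ribosomal RNA genes of that genome were not among the called genes either, and no other feature of the mitochondrial genome was. Nuclear copies of mitochondrial DNA exist in mammals, and the sources used here do not say how the authors treated reads that match several places. The levels of the 4 messages are uncertain to that extent.

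The nuclear members moved within a narrow band on the authors' scaling. Their log2 changes spanned 0.13, against 0.72 for the mitochondrial messages, while their levels spanned 7.82-fold in LD-high and 7.81-fold in LD-low glia. Only called genes have a level here, and the smallest log2 change among genes called higher was 0.66. The band therefore leaves out nuclear genes of the chain that were not called. Atp5l, which encodes subunit g in the membrane part of ATP synthase (ENSRNOG00000028884, chromosome 8, 49220443 to 49227273), stood at 235 FPKM in LD-high glia and 117 FPKM in LD-low glia. Its log2 change was 1.01 and its q of 0.00640 in the authors' deposited table was the smallest among the nuclear members. Atp5g3, one of several genes for the subunit that forms the rotating c ring of ATP synthase (ENSRNOG00000001596, chromosome 3, 60811210 to 60813869), stood at 194 FPKM in LD-high glia and 104 FPKM in LD-low glia. Its log2 change was 0.90 (q = 0.0140 per the authors' deposited table). The mature c subunit is the same from each of its genes, and the other c subunit genes, Atp5g1 and Atp5g2, were not among the called genes.

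Uqcrq, a small subunit of complex III (ENSRNOG00000048174, chromosome 10, 38779132 to 38782419), had the lowest level of the 9, with 30.0 FPKM in LD-high glia and 15.0 FPKM in LD-low glia. The log2 change of Uqcrq was 1.003 (q = 0.0293 per the authors' deposited table). Cox6c, a small subunit of complex IV (ENSRNOG00000010807, chromosome 7, 74723179 to 74735650), stood at 167 FPKM in LD-high glia and 88.1 FPKM in LD-low glia. Its log2 change was 0.92 (q = 0.0347 per the authors' deposited table). Cycs encodes cytochrome c, which also triggers apoptosis when it leaves the mitochondrion (ENSRNOG00000010452, chromosome 4, 80331227 to 80333326). It stood at 85.1 FPKM in LD-high glia and 46.5 FPKM in LD-low glia, and its log2 change of 0.87 was the smallest of the 9 (q = 0.0152 per the authors' deposited table). Nuclear respiratory genes often leave processed copies in the genome. RefSeq (GRCr8) names 8 pseudogenes after Atp5l, 7 after Cycs, 3 after Cox6c and 0 after Atp5g3 and Uqcrq. None of the called genes bears a name formed from these genes in that way, but a copy listed under another name would be missed. Reads may have been split with the copies, so the levels of Atp5l, Cycs and Cox6c are uncertain to that extent. None of the other listed loci overlaps a nuclear member.

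The promoters of the nuclear members are shown as the regulatory sequence of genes that lie on different chromosomes and changed by similar amounts. Changes of this size were common among called genes. For example, 11 cytosolic ribosomal protein genes were called, each of them higher (median log2 change 0.98), though 6 of them were lower after the first rescaling. RefSeq names 294 protein-coding symbols of that pattern, and 11 is 3.74% of that number, beside 4.92% of all genes tested called higher. The 11 were matched by name alone, and some are named as copies or pseudogenes, such as Rps27a-ps1. They need not all be among the 294, and how many of the 294 were tested is not known. The 3.74% is therefore not a like share. RefSeq (GRCr8) gave a window of 250 bases before to 50 bases after the gene start for 4 of the 5, all but Cox6c. Capitals mark matches, on either strand, to 5 motifs of factors known from textbook work on nuclear respiratory genes: the NRF1 core GCATGCGC, the ETS core CCGGAAG bound by GABP (also called NRF2 in this field, and unrelated to Nfe2l2), the CREB core TGACGT, the YY1 core GCCATNTT and the ERR element TNAAGGTCA.
Atp5l (Atp5mg in RefSeq), chr8:54130358-54130657, minus strand: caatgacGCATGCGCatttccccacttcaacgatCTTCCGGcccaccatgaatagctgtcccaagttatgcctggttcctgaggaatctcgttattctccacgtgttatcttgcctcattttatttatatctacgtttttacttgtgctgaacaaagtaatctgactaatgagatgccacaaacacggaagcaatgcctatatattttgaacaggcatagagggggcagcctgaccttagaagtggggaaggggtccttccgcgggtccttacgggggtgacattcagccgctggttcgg
Atp5g3 (Atp5mc3 in RefSeq), chr3:79220615-79220914, minus strand: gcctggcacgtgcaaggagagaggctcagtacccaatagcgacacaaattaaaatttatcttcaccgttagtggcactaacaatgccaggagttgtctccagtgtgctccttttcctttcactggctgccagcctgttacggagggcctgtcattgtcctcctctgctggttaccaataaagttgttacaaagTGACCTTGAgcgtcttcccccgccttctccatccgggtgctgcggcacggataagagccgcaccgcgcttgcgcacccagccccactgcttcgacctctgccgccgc
Uqcrq, chr10:38089929-38090228, minus strand: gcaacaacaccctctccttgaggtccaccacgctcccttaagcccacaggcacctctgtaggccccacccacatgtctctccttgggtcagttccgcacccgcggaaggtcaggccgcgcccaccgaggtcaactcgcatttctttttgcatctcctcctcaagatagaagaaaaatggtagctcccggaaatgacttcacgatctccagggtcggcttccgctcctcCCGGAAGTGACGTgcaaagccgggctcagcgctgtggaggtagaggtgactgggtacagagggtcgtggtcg
Cycs, chr4:80984718-80985017, minus strand: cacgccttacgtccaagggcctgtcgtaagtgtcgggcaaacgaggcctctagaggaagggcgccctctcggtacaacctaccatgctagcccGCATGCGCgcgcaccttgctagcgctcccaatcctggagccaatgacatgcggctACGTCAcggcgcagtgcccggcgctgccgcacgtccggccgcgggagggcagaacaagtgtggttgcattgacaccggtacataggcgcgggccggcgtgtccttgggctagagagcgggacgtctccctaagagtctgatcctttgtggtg

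No single motif was common to the 4 windows. The NRF1 core was found in Atp5l and Cycs, whose first base stood at -243 in Atp5l and at -157 in Cycs, counted from the gene start. The ETS core was found in Atp5l, on the other strand, and in Uqcrq, where a CREB core follows it directly without overlap. A CREB core also lay in Cycs, on the other strand, and the ERR element, on the other strand, was the only match in Atp5g3. The YY1 core was found in none of the 4. Of all 33469 RefSeq promoters of this length, 2.47% held the NRF1 core, 8.75% the ETS core, 7.94% the CREB core, 6.96% the YY1 core and 1.198% the ERR element. Of the 75 promoters found for the 85 nuclear symbols of the chain, 12% held the NRF1 core, 28.0% the ETS core, 13.3% the CREB core, 37.3% the YY1 core and 4.00% the ERR element. A match is a string of letters in a window and not evidence of binding.

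Read by complex, the members of complex I had the largest changes and came from the mitochondrial genome alone. They summed to 29342 FPKM in LD-high and 10009 FPKM in LD-low glia, a ratio of 2.93. In complex IV the messages of both genomes can be set side by side. Mt-co2 was 51.9 times Cox6c in LD-high glia and 45.3 times Cox6c in LD-low glia, and their log2 changes differed by 0.20. The members of complex V summed to 429 FPKM in LD-high and 221 FPKM in LD-low glia, a ratio of 1.94. The complex I members are all mitochondrial and the complex V members all nuclear. A difference between these complexes thus cannot be told apart from one between the genomes. Within the nuclear set the pair whose proportion differed most was Atp5l and Cycs, with Atp5l at 2.76 times Cycs in LD-high and 2.51 times in LD-low glia. Cycs was 2.84 times Uqcrq in LD-high and 3.11 times in LD-low glia. The pair that differed least was Atp5l and Uqcrq, with Atp5l at 7.82 times Uqcrq in LD-high and 7.81 times in LD-low glia.

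**Figure D2:**
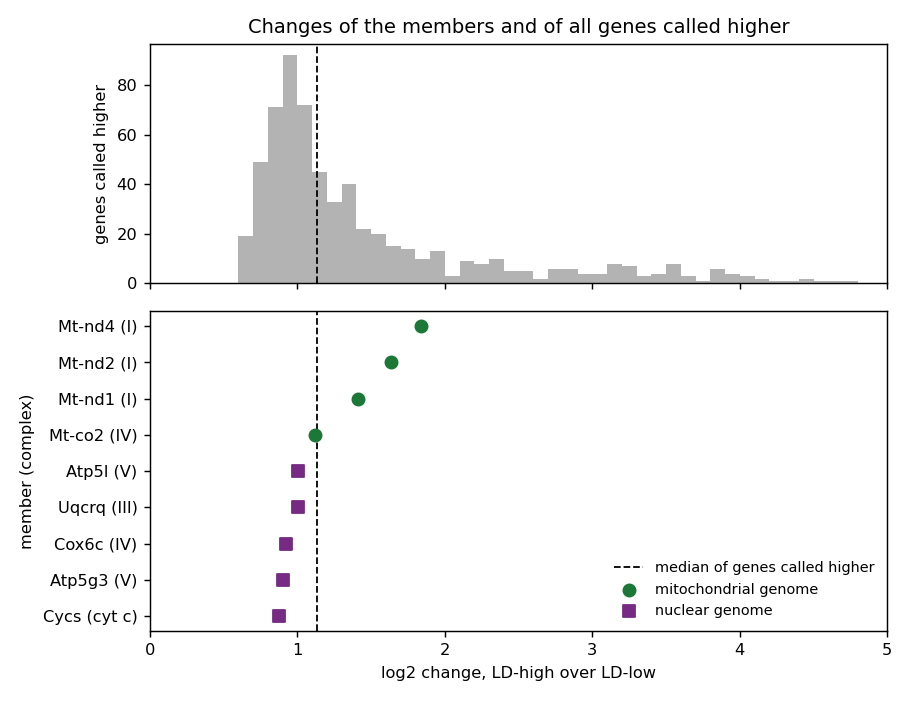
Log2 change (LD-high over LD-low) of the 9 genes (lower panel, complex in brackets, circles for the mitochondrial and squares for the nuclear genome) below the histogram of the 633 genes called higher with a level above 0 in both groups (upper panel); the dashed line is their median, 1.13. The mitochondrial messages lie between 1.12 and 1.84 and the nuclear ones between 0.87 and 1.01; with levels rescaled to an equal sum of the listed genes, Atp5g3, Cox6c and Cycs lie below 0.

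Among the 633 genes called higher with a level above 0 in both groups, the median log2 change was 1.13 and the quartiles were 0.92 and 1.68. The share of these genes with a smaller change was 78.0% for Mt-nd4, 73.5% for Mt-nd2, 67.1% for Mt-nd1 and 48.7% for Mt-co2. For the nuclear members it was 37.8% for Atp5l, 37.1% for Uqcrq, 25.3% for Cox6c, 22.4% for Atp5g3 and 17.7% for Cycs. Each nuclear member thus changed less than the median called gene, 2 of the 9 (Atp5g3 and Cycs) less than the lower quartile, and none more than 2.01-fold. By strength of evidence the 9 were spread over the called list. Before Mt-co2, the member with the smallest p, stood 391 called genes, and before Mt-nd1, the member with the largest, stood 991. Stricter rules on the same calls kept some of the 9. At q below 0.01, 4 of the 9 stayed called higher, as did 297 of the 639 genes called higher at q below 0.05. Of the genes tested, 2.29% were then called higher and 1.98% lower. With a log2 change of at least 1 required, 6 of the 9 and 408 of the 639 stayed (3.14% of the genes tested, with 3.29% lower). A minimum of 5 FPKM in the higher group kept all 9 and 582 of the 639 (4.48% of the genes tested, with 3.5% lower). The 9 were taken from called genes, so the 639 are the like set for these counts.

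The chain as a whole was then counted from lists of its subunits, and most of the symbols were not called. Of 98 symbols for subunits of the chain, cytochrome c and the inhibitor of ATP synthase, 10 were called higher in the authors' deposited table and 0 lower, which is 10.2% beside 4.92% of all genes tested, and 3 of the 10 (Atp5g3, Cox6c and Cycs) were lower after the first rescaling but not with the mitochondrial genome left out of the sum. Counted over nuclear symbols, 6 of 85 (7.06%) were called higher. All called genes of these lists but 1 are the members described above. The other was Atpif1, which is not a structural subunit but the inhibitor protein that stops ATP synthase from running backwards, with 134 FPKM in LD-high glia and 65.0 FPKM in LD-low glia (log2 change 1.05, q = 0.0274 per the authors' deposited table). None of the 36 nuclear symbols of complex I was called, nor any of the 4 symbols of complex II. By complex, with both genomes, the called genes were 3 of 43 for complex I, 1 of 10 for complex III, 2 of 20 for complex IV and 3 of 20 for complex V with its inhibitor. A symbol that was not called has no level in these files, and each symbol was counted as tested. Older and newer names were both searched where known, but a gene listed under a further name would be missed, so the counts of called symbols are lower bounds and a 0 may hide such a gene.

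**Figure D3:**
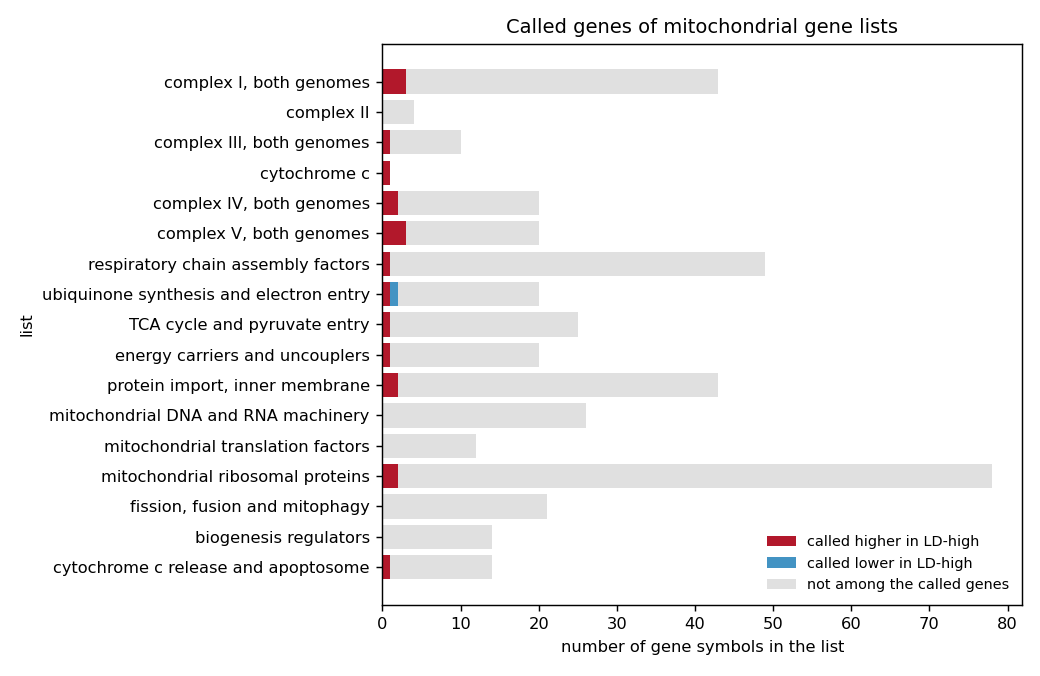
Number of gene symbols in each mitochondrial list (bars) that were called higher in LD-high glia (red), called lower (blue) or were not among the called genes (grey). The bar of complex V includes the inhibitor Atpif1. For example, 3 of 43 symbols of complex I and 2 of 43 symbols of protein import and the inner membrane were called higher.

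Around the chain, 10 further lists of mitochondrial genes held 244 symbols, of which 7 (2.87%) were called higher and 1 (0.410%) lower, and Fh and Hspd1 among the 7 were lower after the first rescaling. Both shares were below those of all genes tested. Hccs, which attaches haem to cytochrome c, had 39.1 FPKM in LD-high glia and 16.8 FPKM in LD-low glia (log2 change 1.22, q = 0.00187 per the authors' deposited table). Of 49 assembly factors, Hccs alone was called. Etfa, which carries electrons from fatty acid oxidation towards ubiquinone, had 29.6 FPKM in LD-high glia and 13.8 FPKM in LD-low glia (log2 change 1.10, q = 0.0197 per the authors' deposited table). Adck3, a kinase-like protein of ubiquinone synthesis, was the 1 gene called lower, with 0.196 FPKM in LD-high glia and 1.51 FPKM in LD-low glia (log2 change -2.95, q = 0.0383 per the authors' deposited table). Its level in both groups was far below that of any of the 9.

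Ucp2, an inner membrane carrier, had 17.2 FPKM in LD-high glia and 6.77 FPKM in LD-low glia (q = 0.0147 per the authors' deposited table), and was the 1 called gene of 20 energy carriers and uncouplers. Fh, the fumarate hydratase of the tricarboxylic acid cycle, had 32.1 FPKM in LD-high glia and 16.9 FPKM in LD-low glia (q = 0.0306 per the authors' deposited table), and was the 1 called gene of 25 in its list. In protein import and inner membrane organisation 2 of 43 symbols were called. They were the import receptor Tomm20, with 173 FPKM in LD-high and 74.8 FPKM in LD-low glia, and the chaperonin Hspd1, with 212 FPKM in LD-high and 133 FPKM in LD-low glia. Xiap, a caspase inhibitor that acts after cytochrome c release, had 19.2 FPKM in LD-high glia and 8.40 FPKM in LD-low glia (q = 0.00841 per the authors' deposited table), while Apaf1 and Casp9, which assemble with cytochrome c, were not among the called genes. Of 78 mitochondrial ribosomal protein genes named in RefSeq, 2 (2.56%) were called higher, Mrps26 and Mrpl50. No symbol was called of 26 for mitochondrial DNA and RNA machinery, 12 for mitochondrial translation factors, 21 for fission, fusion and mitophagy and 14 for biogenesis regulators. Tfam, the packaging and transcription factor of mitochondrial DNA, and the coactivator Ppargc1a are in those lists.

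Markers of several cell types differed between the groups in the same comparison. The counts below stand beside 4.92% of all genes tested called higher and 4.22% called lower. Of 27 markers of microglia and macrophages, 16 were called, all 16 higher, with a summed level of 608 FPKM in LD-high glia and 59.7 FPKM in LD-low glia; the largest changes were those of Cd53, Ptprc and Fcer1g. Markers of fibroblasts and mural cells had 5 of 12 called, all 5 higher, with a summed level of 220.2 FPKM in LD-high and 71.5 FPKM in LD-low glia. Endothelial markers had 3 of 10 called, all 3 higher, and 11 of 25 cell cycle genes were called, all 11 higher (median log2 change 1.12), of which 3 were lower after the first rescaling. Of 23 neuron markers 13 were called, all 13 lower, with a summed level of 191 FPKM in LD-high glia and 721 FPKM in LD-low glia, Neurod1, Dcx and Ina changing most. Oligodendrocyte lineage markers had 2 of 13 called, both lower. None of these called markers is listed at 0 in either group. Of 18 astrocyte markers 3 were called (Acsbg1, Slc39a12 and Slc4a4), each of them higher (median log2 change 0.80) but lower after the first rescaling. Gfap, Slc1a2, Slc1a3 and Aqp4 were not among the called genes, so the labelled cell type cannot be checked against their levels. The part of these shifts in the levels of the 9 genes was not tested.

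**Figure D4:**
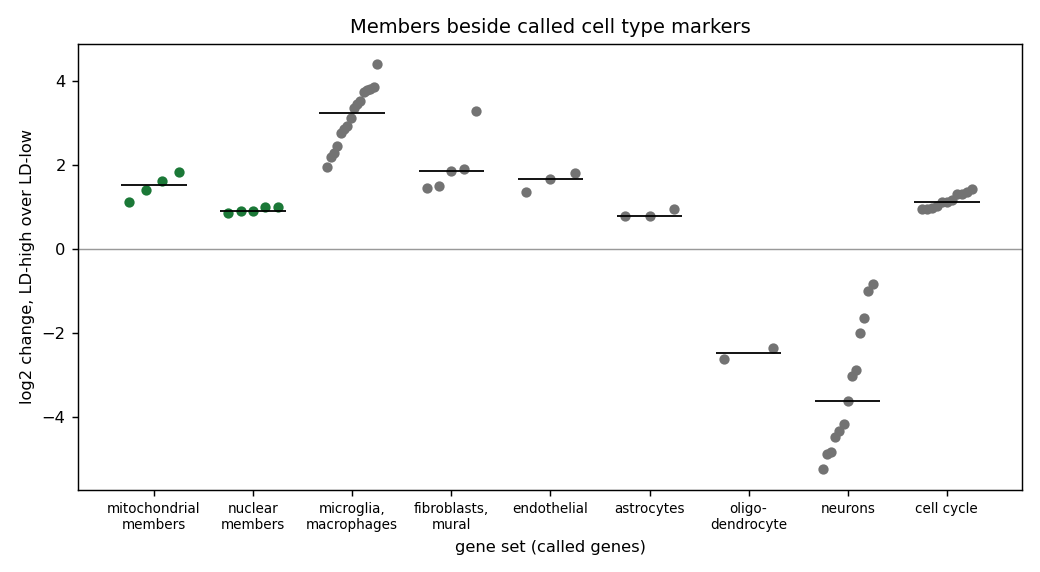
Log2 change (LD-high over LD-low) of the 9 genes, by genome (green), beside the called genes of each cell marker list and of the cell cycle list (grey); each point is 1 gene and each line a median. The medians are 1.52 for the mitochondrial and 0.92 for the nuclear members, 3.25 for microglia and macrophages, 1.12 for the cell cycle and -3.62 for neurons; with levels rescaled to an equal sum of the listed genes, the median of the nuclear members is -0.065.

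The listed genes most like the 2 sets were sought by distance between log2 levels, over the 2 group levels only. Nearest to the mean point of the nuclear members (geometric means 114 FPKM in LD-high and 59.5 FPKM in LD-low glia) were Pmepa1 (distance 0.019), Nsa2 (0.035) and Atp1b3 (0.062). Nearest to that of the mitochondrial messages (8545 FPKM in LD-high and 3023 FPKM in LD-low glia) were 3 loci with provisional names, RGD1563581 (distance 1.07), AABR07027212.1 (1.40) and AABR07046778.1 (1.85), so that none of the listed genes lay close to them. The authors' deposited tables of enriched biological processes were also searched. The words sought included those for mitochondria, respiration, electron transport, oxidative phosphorylation and energy, and ATP followed by a space. Of 228 named processes for higher genes and 104 for lower genes, 0 carried any of them. A name that ends in ATP or holds it within a longer word would be missed.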

How the data were processed

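RNA was purified with a PicoPure kit and cDNA was amplified with the Ovation v2 kit, per the labels' protocols. Bowtie2, Cuffdiff and rn6 are named in the submitters' processing notes, with the annotation and strand setting not stated in the sources used here. The authors deposited 1 level per gene and group, and these are taken as FPKM because Cuffdiff reports that unit; the headers name none. The deposited log2 changes, p-values and q-values are the authors', per the file headers. The p-values of the enriched processes are Bonferroni corrected, per the file headers.

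The log2 of LD-high over LD-low was recomputed, with a largest difference of 1.15e-05 to the deposited log2 values. Genes listed at 0 (20 in LD-high, 6 in LD-low) got no fold. The number of genes tested was recovered from p and q as 12981, a step tested on simulated data. Starts were raised by 1. Depth per sample is unknown. No test was run beyond the authors' own. The members and the lists were chosen with earlier results of these data known. The genes named are the 9, every called gene of the mitochondrial lists and up to 3 called markers per cell type; Mrps26 and Mrpl50 come from a pattern of symbols, and genes given as not called were chosen for their role. Python 3.11.15 and pandas 2.3.3 were used.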

Additional observations from a re-analysis of the deposited data

How the results depend on the processing

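No paired analysis was possible because the files hold no values per sample, and for the same reason no replicate could be left out. Pseudocounts of 1 and 0.1 moved no member's log2 change by 0.1 or more. Rescaling to an equal sum of all listed genes gave a mitochondrial median of 0.54 and a nuclear median of -0.065, with Atp5g3 at -0.081, Cox6c at -0.065 and Cycs at -0.11. With the mitochondrial genome left out of that sum the median was 0.68 for mitochondrial and 0.076 for nuclear members. The listed genes are selected calls whose summed level is 1.98 times as high in LD-high as in LD-low glia, so these sums are not library totals. Both sums include AABR07046778.1, at 24587 FPKM in LD-high and 6228 FPKM in LD-low glia, and neither was taken without it. The median of the mitochondrial members exceeded the nuclear one by 0.60 under each scaling, since a scaling shifts both alike. At q below 0.01, 4 members stayed called (Mt-nd2, Mt-nd4, Mt-co2 and Atp5l), among them 1 nuclear one, as did 4 subunits of the chain, 3 higher and 0 lower genes of the other mitochondrial lists, and 297 higher and 257 lower genes in all. With a log2 change of at least 1 required, 2 nuclear members and 408 higher genes in all remained. A minimum of 5 FPKM left 0 lower genes of the other mitochondrial lists. The remaining counts stayed within 1.5 times.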

Other observations

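The 1 listed locus with a level above the 4 listed mitochondrial messages had only a provisional name. AABR07046778.1 (ENSRNOG00000058589, chromosome 5, 6373583 to 6373849 in rn6) stood at 24587 FPKM in LD-high glia and 6228 FPKM in LD-low glia, a log2 change of 1.98 (q = 0.00187 in the authors' deposited table). RGD1563581 (ENSRNOG00000040101, chromosome 17, 2165906 to 2166217) stood at 4866 FPKM in LD-high glia and 1875 FPKM in LD-low glia, between Mt-co2 and Mt-nd4 in LD-high glia. The files give neither locus a role.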
